A study of Rattus norvegicus with 10 samples.

Results

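Opioid and somatostatin receptors are the subject here: the 4 opioid receptor genes Oprl1, Oprk1, Oprm1 and Oprd1 and the somatostatin receptor genes Sstr1, Sstr2, Sstr3 and Sstr4. They were taken by gene name from the deposited count table, which holds all 8 among 14354 genes; Sstr5 is not analysed here. The libraries came from mixed neuron and glia cultures of the hippocampus of Sprague-Dawley rat embryos (embryonic day 18). In 5 libraries, 1 µM tetrodotoxin (TTX), which blocks voltage-gated sodium channels and so stops action potentials, was added at 19 days in vitro and left for 24 h. The other 5 libraries received vehicle for the same 24 h, and both groups are labelled 20 days in vitro. The labels do not say that replicates are separate cultures or animals, so p-values reflect only how much these samples vary, and that variation may be technical.

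Both families are G-protein-coupled receptors that signal through Gi and Go proteins. On binding their peptides they lower cyclic AMP, close presynaptic calcium channels and open the inwardly rectifying potassium channels called GIRK, so they generally dampen neuronal firing and transmitter release. Opioid receptors answer to enkephalins, dynorphins, endorphins and nociceptin, and somatostatin receptors answer to somatostatin, which hippocampal interneurons release, and to the related peptide cortistatin. Pharmacologists place Sstr2 and Sstr3 in one group, which binds octreotide, and Sstr1 and Sstr4 in another.

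After TTX, Oprl1, Sstr2 and Sstr3 rose 4.87-fold, 2.44-fold and 2.48-fold, Oprk1 rose 1.89-fold at a low level, and Sstr1 was 3.51-fold lower. The other three, Oprm1, Oprd1 and Sstr4, did not pass the test. Thus 4 of the 8 genes were called higher, where 35.4% of the 13088 genes tested were, and 1 was called lower, where 35.0% were (edgeR's quasi-likelihood test, Benjamini-Hochberg adjusted p under 0.05 over all tested genes; 70.5% called in either direction). A call by itself therefore does not set these genes apart. Against a threshold of 1.5-fold, which 13.8% of genes passed in either direction, Oprl1, Sstr2 and Sstr3 passed on the higher side (5.35% of genes did) and Sstr1 on the lower side (8.44% did). The median log2 fold change was 0.64 over the 8 genes and 0.01 over all genes tested, and the median of its absolute size was 1.11 over the 8 genes and 0.27 over all genes. TTX and vehicle libraries were fully separated in 5 of the 8 genes, as in 57.4% of genes tested. In bulk RNA, more or fewer cells of a type and more or less RNA per cell cannot be told apart.

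**Figure D1:**
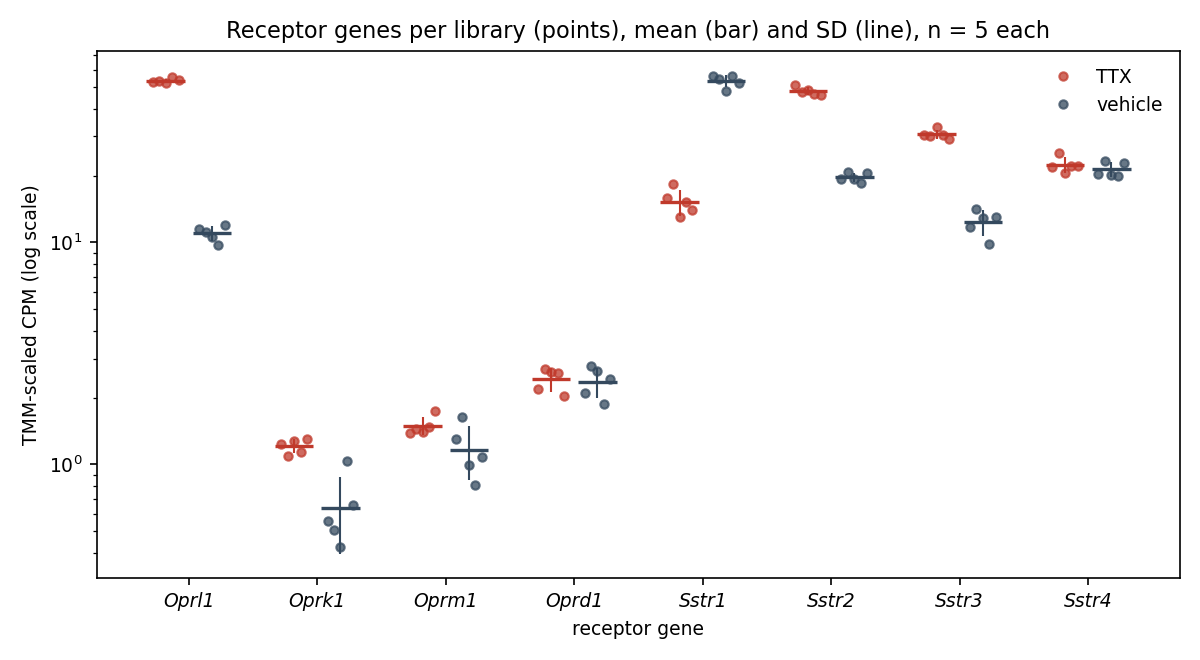
Level of each receptor gene in every library, as CPM (counts scaled to library size with TMM, log axis), with TTX on the left of each pair and vehicle on the right; points are libraries, bars are means and vertical lines are SD (n = 5 each). Oprl1, Sstr2 and Sstr3 sit higher in all 5 TTX libraries than in any vehicle library, Sstr1 sits lower in all 5, and Oprm1, Oprd1 and Sstr4 overlap.

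Oprl1 encodes the receptor of nociceptin, an opioid-like peptide, and binds classical opioids such as morphine poorly. Its level was 52.8, 53.2, 52.5, 55.3 and 53.7 CPM in TTX replicates 1 to 5, against 11.5, 11.1, 10.6, 9.78 and 11.9 CPM in vehicle replicates 1 to 5. Every TTX library lay above every vehicle library, and the TTX libraries differed little among themselves, with a coefficient of variation of 2.09% against 7.56% in the vehicle libraries. The log2 fold change was 2.28 ± 0.05 (SE, adjusted p = 3.47e-14 by edgeR, 95% interval 2.18 to 2.39), and it was exceeded by 50 of the 4638 genes called higher. The call rested on 3163 to 4495 counts per TTX library and 600 to 912 per vehicle library.

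The other opioid receptors were scarce. Oprk1, the kappa receptor for dynorphins, had 1.23, 1.09, 1.27, 1.14 and 1.31 CPM in TTX replicates 1 to 5, against 0.555, 0.507, 0.425, 1.04 and 0.654 CPM in vehicle replicates 1 to 5. The groups did not overlap, but vehicle replicate 4 reached almost the lowest TTX library, and the numbers behind these values were 68 to 105 counts per TTX library and 29 to 68 per vehicle library. Its log2 fold change was 0.92 ± 0.22 (SE, adjusted p = 0.00186 by edgeR, 95% interval 0.45 to 1.40). Oprk1 missed the threshold of 1.5-fold (adjusted p = 0.146 by edgeR's glmTreat) and passed it without vehicle replicate 4 (adjusted p = 0.00733).

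Oprm1, the mu receptor through which morphine acts, had 1.39, 1.45, 1.41, 1.48 and 1.73 CPM in TTX replicates 1 to 5. Vehicle replicates 1 to 5 had 1.302, 1.64, 0.998, 0.812 and 1.09 CPM. These ranges overlapped, since vehicle replicate 2 lay above 4 of the 5 TTX libraries, although all 5 TTX libraries lay above the vehicle median of 1.09 CPM. The log2 fold change was 0.36 ± 0.18 (SE, adjusted p = 0.0933 by edgeR), with a 95% interval of -0.03 to 0.74 that includes both no change and a rise of up to 1.68-fold. It passed without vehicle replicate 2 (log2 fold change 0.50, adjusted p = 0.0183 by edgeR), and with limma on the FPKM values (fragments scaled by transcript length and by library size) that the authors deposited, a setting chosen after seeing the data (log2 difference 0.43, adjusted p = 0.0114). In RefSeq's annotation of assembly GRCr8, Oprm1 overlaps Ipcef1, which fell (log2 fold change -1.17 ± 0.15 SE, adjusted p = 6.75e-06 by edgeR). The sources used here do not give whether strand was used in counting, so reads of these genes may not be separated.

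Oprd1, the delta receptor, which enkephalins prefer, had 2.19, 2.70, 2.61, 2.57 and 2.04 CPM in TTX replicates 1 to 5, against 2.11, 2.77, 2.64, 1.87 and 2.42 CPM in vehicle replicates 1 to 5. The groups lay on top of each other. Its log2 fold change of 0.03 ± 0.14 (SE, adjusted p = 0.831 by edgeR) had a 95% interval of -0.26 to 0.33, that is from 0.837-fold to 1.25-fold. The estimate rested on 110 to 193 counts per library, and a change within that interval is not excluded.

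Because CPM does not account for transcript length, levels of different genes were compared in the deposited FPKM. Among opioid receptors the order was the same in both groups, Oprl1, Oprd1, Oprm1 and Oprk1 from high to low, with no overlap between neighbours in either group. Mean FPKM was 17.4 ± 0.346 for Oprl1 in TTX libraries and 3.54 ± 0.257 in vehicle libraries (SD, n = 5 each). Oprd1 averaged 1.67 ± 0.206 FPKM in TTX libraries and 1.61 ± 0.259 in vehicle libraries, whereas Oprm1 averaged 0.643 ± 0.101 and 0.450 ± 0.0779 FPKM and Oprk1 0.250 ± 0.0188 and 0.129 ± 0.0493 FPKM in TTX and vehicle libraries. Oprl1 made up 86.1% to 87.9% of the summed opioid receptor FPKM in TTX libraries and 58.4% to 65.1% in vehicle libraries. Oprd1, whose own level did not pass, held 7.04% to 9.33% of that sum in TTX libraries and 25.2% to 31.3% in vehicle libraries.

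**Figure D2:**
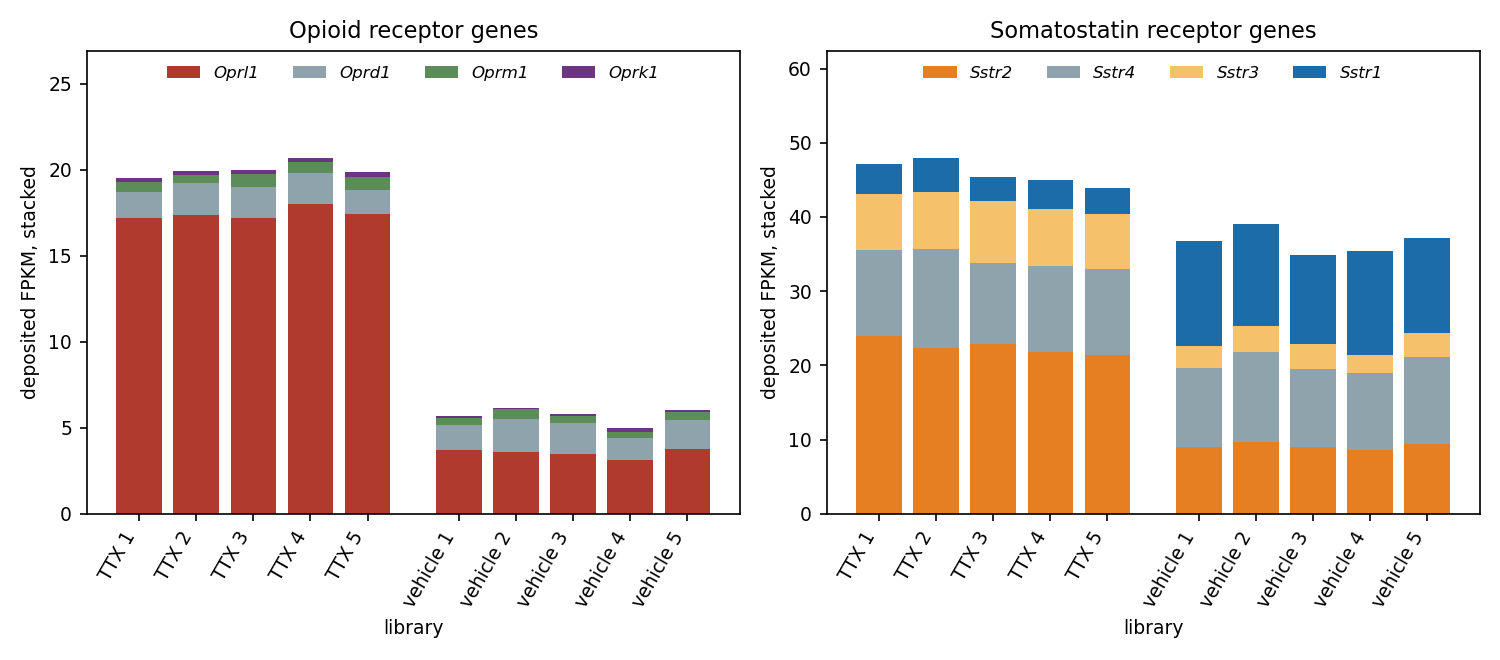
Deposited FPKM of the opioid receptor genes (left) and somatostatin receptor genes (right), stacked per library, with the 5 TTX libraries on the left of each panel and the 5 vehicle libraries on the right. Summed opioid receptor FPKM was 19.6 to 20.7 in TTX libraries and 4.97 to 6.17 in vehicle libraries, nearly all of the difference being Oprl1, and the somatostatin receptor bars show Sstr2 (orange) as the largest part with TTX and Sstr1 (blue) with vehicle.

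Somatostatin receptors did not move together: Sstr2 and Sstr3 rose, Sstr1 fell and Sstr4 did not pass. The stretch of 250 bases before the annotated transcription start of the 3 that changed is printed 5′ to 3′ on the gene's strand, from RefSeq (assembly GRCr8, whereas the submitters' processing notes name rn6). It is printed because Sstr2 carries a match to the cyclic AMP response element, the DNA motif bound by the activity-dependent factor CREB. Sstr1 carries a match only to the shorter core of that element. Capitals mark those matches.
Sstr1, chr6:81567233-81567482, plus strand: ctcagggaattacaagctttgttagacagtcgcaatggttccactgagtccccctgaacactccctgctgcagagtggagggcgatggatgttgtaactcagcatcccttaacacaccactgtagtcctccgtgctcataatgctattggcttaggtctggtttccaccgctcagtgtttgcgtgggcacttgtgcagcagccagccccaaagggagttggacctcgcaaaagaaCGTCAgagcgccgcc
Sstr2, chr10:99163103-99163352, plus strand: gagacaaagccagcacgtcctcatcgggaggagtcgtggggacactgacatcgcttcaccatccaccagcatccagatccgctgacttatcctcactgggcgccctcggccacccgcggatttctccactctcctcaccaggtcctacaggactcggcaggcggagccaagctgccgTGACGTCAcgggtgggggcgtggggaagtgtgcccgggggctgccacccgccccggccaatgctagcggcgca
Sstr3, chr7:111980251-111980500, minus strand: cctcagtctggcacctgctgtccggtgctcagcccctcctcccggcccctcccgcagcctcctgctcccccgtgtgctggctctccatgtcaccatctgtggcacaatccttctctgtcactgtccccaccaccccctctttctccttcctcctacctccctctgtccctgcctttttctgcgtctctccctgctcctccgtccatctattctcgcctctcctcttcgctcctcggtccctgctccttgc
The windows were searched on both strands for 4 motifs. The full element TGACGTCA stood 73 to 66 bases before the start of Sstr2 and is present in 1.59% of 33469 such windows. Its core TGACG, which the full element contains on both strands, also stood on the opposite strand 15 to 11 bases before the start of Sstr1, where it reads CGTCA, and is present in 18.2% of windows. The AP-1 motif TGANTCA (6.34% of windows) and the Egr motif GCGTGGGCG (0.478% of windows) matched none of the 7 windows of the 6 receptor genes with an entry, and neither form of the cyclic AMP element matched those of Sstr3, Sstr4, Oprd1 or Oprm1. A match is a description of these letters and was not tested for binding.

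Sstr1 was the receptor gene that fell. It had 15.8, 18.4, 12.95, 15.2 and 14.0 CPM in TTX replicates 1 to 5, against 56.4, 54.6, 48.3, 56.2 and 52.0 CPM in vehicle replicates 1 to 5. The highest TTX library stayed far below the lowest vehicle library. The log2 fold change was -1.81 ± 0.08 (SE, adjusted p = 4.97e-11 by edgeR), which is 3.51-fold lower with a 95% interval of 3.12-fold to 3.94-fold, and 270 of the 4583 genes called lower fell further.

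Sstr2 and Sstr3 rose by similar factors. Sstr2, the octreotide-binding receptor widely found on neurons, had 51.3, 47.8, 48.7, 46.7 and 46.1 CPM in TTX replicates 1 to 5, against 19.4, 20.8, 19.3, 18.5 and 20.5 CPM in vehicle replicates 1 to 5. Sstr3, which in rodent brain sits in the primary cilium of neurons, had 30.4, 30.2, 32.9, 30.4 and 29.3 CPM in TTX replicates 1 to 5, against 11.8, 14.2, 12.9, 9.84 and 12.96 CPM in vehicle replicates 1 to 5. In both genes all 5 TTX libraries lay above all vehicle libraries, and vehicle replicate 4 was the lowest library for each. The log2 fold change was 1.29 ± 0.04 for Sstr2 (SE, adjusted p = 3.16e-12 by edgeR) and 1.31 ± 0.08 for Sstr3 (adjusted p = 1.298e-09). Of the genes called higher, 262 exceeded Sstr2 in log2 fold change and 244 exceeded Sstr3. Sstr2 overlaps Slc39a11, a zinc transporter gene, in the GRCr8 annotation. Slc39a11 did not pass (20.4 ± 0.715 CPM in TTX libraries and 21.8 ± 1.15 in vehicle libraries, SD, n = 5 each).

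Sstr4 had 22.0, 25.4, 20.5, 22.0 and 22.0 CPM in TTX replicates 1 to 5, against 20.3, 23.2, 20.2, 20.0 and 22.9 CPM in vehicle replicates 1 to 5. It shares its pharmacological group with Sstr1 but did not follow it. The groups overlapped, and the log2 fold change was 0.07 ± 0.06 (SE, adjusted p = 0.340 by edgeR) with a 95% interval of -0.07 to 0.20, or 0.956-fold to 1.15-fold.

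The order of somatostatin receptor levels differed between the groups. In TTX libraries it ran Sstr2, Sstr4, Sstr3 and Sstr1, at 22.5 ± 0.979, 11.8 ± 0.946, 7.75 ± 0.372 and 3.83 ± 0.512 FPKM (SD, n = 5), with no overlap between neighbours. In vehicle libraries it ran Sstr1, Sstr4, Sstr2 and Sstr3, at 13.3 ± 0.854, 11.1 ± 0.797, 9.13 ± 0.414 and 3.09 ± 0.411 FPKM (SD, n = 5). There the ranges of Sstr1 and Sstr4 touched, at 12.1 to 14.1 and 10.4 to 12.1 FPKM, although Sstr1 was above Sstr4 within each of the 5 libraries. Sstr1 had the lowest level of the 4 in TTX libraries and the highest in vehicle libraries, while Sstr2 held 46.6% to 50.9% of the summed FPKM in TTX libraries and 24.2% to 25.7% in vehicle libraries. Sstr1 held 7.20% to 9.62% in TTX libraries and 34.4% to 39.4% in vehicle libraries. The sum of all 4 was 43.9 to 48.0 FPKM in TTX libraries and 34.9 to 39.0 FPKM in vehicle libraries, a narrower gap than for Sstr1 or Sstr2 alone.

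Across both families, in FPKM, Oprl1 stood in TTX libraries between Sstr2 and Sstr4 with no overlap with either. In vehicle libraries it stood in the middle, below Sstr2 and above Sstr3, and its range of 3.15 to 3.80 FPKM overlapped the 2.46 to 3.56 FPKM of Sstr3.

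Whether any 2 receptor genes responded differently was tested with the log2 ratio of their CPM, with 0.5 added, within each library. The ratio was compared between TTX and vehicle libraries by an exact two-sided permutation test, with 28 pairs adjusted together. In 23 of the 28 pairs the ratio differed (adjusted p under 0.05), and the smallest p the design allows is 0.00794. The pairs share the same 8 genes, and 70.5% of all genes tested were called by edgeR in either direction. The share for pairs of other genes was not measured, so this count does not set the receptors apart. Oprl1 differed from each of the 7 other genes, each time with p = 0.00794 by the exact permutation test and adjusted p = 0.0106. Its log2 ratio to Sstr1 was 1.79 ± 0.183 in TTX libraries and -2.23 ± 0.148 in vehicle libraries (SD, n = 5 each), a difference of 4.02. Oprl1 also outpaced the other genes that rose, by 0.97 over Sstr2, 0.95 over Sstr3 and 1.62 over Oprk1. The value for the scarce Oprk1 depends on the CPM added: it was 1.39 with 0.1 CPM and 1.74 with 1 CPM. With 0.1 CPM added, Oprk1 no longer differed from Sstr2 or Sstr3. The ratio of Sstr1 to Sstr2 was -1.63 ± 0.187 in TTX libraries and 1.42 ± 0.121 in vehicle libraries on the log2 scale.

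Sstr2 and Sstr3 could not be told apart in their response. Their log2 ratio was 0.64 ± 0.0683 in TTX libraries and 0.66 ± 0.138 in vehicle libraries (difference -0.02, exact permutation p = 0.817, adjusted p = 0.817). The other pairs that did not pass were Oprk1 with Oprm1 (difference 0.34, adjusted p = 0.188), Oprm1 with Oprd1 (0.24, adjusted p = 0.142), Oprm1 with Sstr4 (0.21, adjusted p = 0.130) and Oprd1 with Sstr4 (-0.03, adjusted p = 0.749), all by the exact permutation test. Missing the threshold does not show that the genes of a pair respond alike. Pairs with the scarce Oprk1 were the least firm: its difference from Oprd1 (0.58, adjusted p = 0.0483) was lost in 9 of 10 fits that left out 1 library, the exception being that without vehicle replicate 4, and its difference from Sstr4 (0.54, adjusted p = 0.0303) in 7 of 10.

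**Figure D3:**
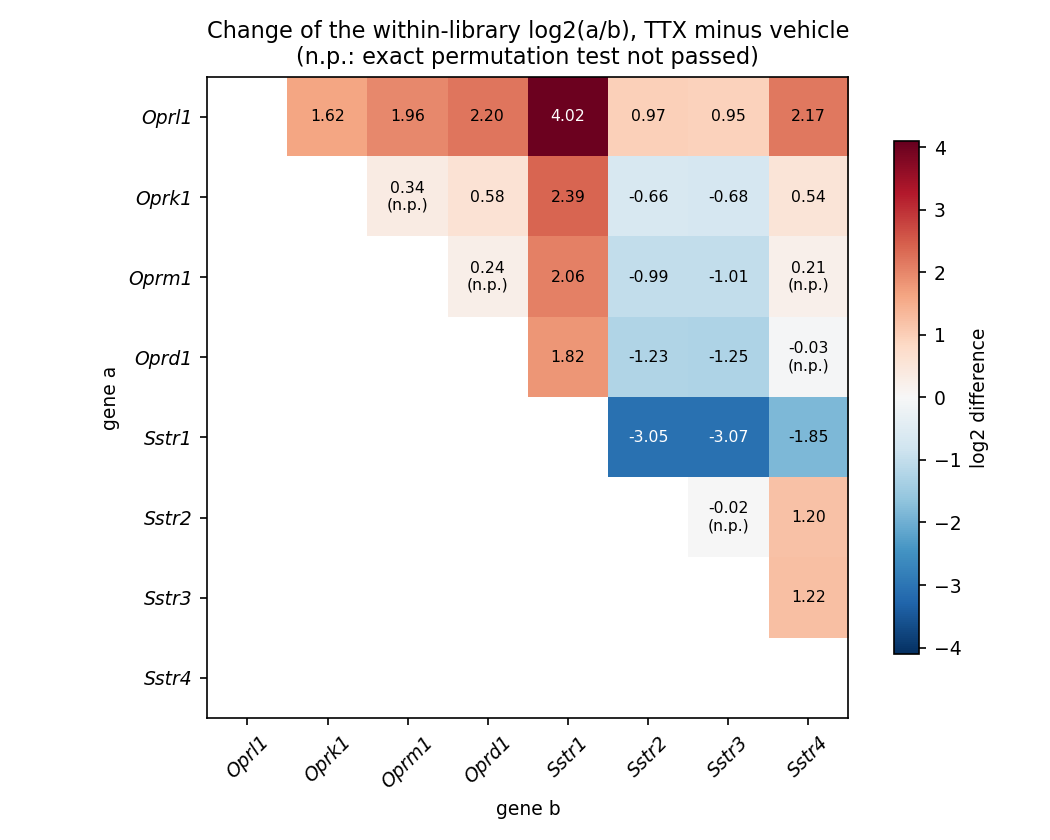
Change in the within-library log2 ratio of gene a (rows) to gene b (columns), TTX minus vehicle, from CPM with 0.5 added; red means that gene a gained on gene b with TTX. The row of Oprl1 is red throughout (0.95 to 4.02), the row of Sstr1 is blue (-3.07 to -1.85), and Sstr2 against Sstr3 is near 0.

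All 6 precursor genes of the receptors' peptides fell, with a median log2 fold change of -1.46. Of all genes tested, 35% were called lower. Pnoc, the precursor of nociceptin and so of the ligand of Oprl1, averaged 16.0 ± 1.204 CPM in TTX libraries and 51.5 ± 2.33 in vehicle libraries (SD, n = 5 each, log2 fold change -1.68 ± 0.05 SE, adjusted p = 1.52e-12 by edgeR). Pdyn, which gives dynorphins, averaged 270.1 ± 28.8 CPM in TTX libraries and 935 ± 81.6 in vehicle libraries (log2 fold change -1.79). Penk, which gives enkephalins, averaged 13.5 ± 1.11 and 32.1 ± 1.49 CPM (-1.25), and Pomc, the precursor of beta-endorphin, 17.7 ± 0.721 and 34.7 ± 2.64 CPM (-0.97), in TTX and vehicle libraries. Of the ligands of the somatostatin receptors, Cort, the cortistatin gene, averaged 14.4 ± 1.86 CPM in TTX libraries and 65.8 ± 5.11 in vehicle libraries (-2.19), whereas Sst itself fell less, to 438 ± 14.97 CPM in TTX libraries, against 546 ± 27.8 in vehicle libraries (-0.32 ± 0.04 SE, adjusted p = 1.41e-06 by edgeR).

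Enzymes that cut and finish the peptides fell with one exception: 3 of 4 fell and Cpe, a carboxypeptidase, rose by 0.15 on the log2 scale. The shares over all genes tested were 35% lower and 35.4% higher. The convertase Pcsk2 fell by 0.53. Pam, which amidates peptide ends, averaged 321 ± 13.2 CPM in TTX libraries and 1620 ± 32.0 in vehicle libraries (log2 fold change -2.33), and Pcsk1, the other convertase, averaged 20.2 ± 2.53 and 98.5 ± 7.22 CPM (-2.29). Of 7 peptidases that break such peptides down, Ace and Ide rose (0.78 and 0.15 on the log2 scale), Ece1 and Anpep fell (-1.03 and -1.78), and Mme, Dpp3 and Lnpep did not pass.

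Downstream of the receptors, genes of the signalling chain moved both ways. All 5 Gi and Go alpha subunit genes passed, by small steps: Gnai2 and Gnaz rose by 0.22 and 0.16, and Gnao1, Gnai1 and Gnai3 had log2 fold changes of -0.32, -0.28 and -0.16. Among the GIRK channels, Kcnj6 rose to 170.4 ± 7.30 CPM in TTX libraries, against 95.3 ± 5.84 in vehicle libraries (log2 fold change 0.84 ± 0.04 SE, adjusted p = 2.10e-10 by edgeR), and Kcnj3 fell to 23.7 ± 0.769 CPM in TTX libraries, against 47.9 ± 1.33 in vehicle libraries (-1.01). Kcnj5 also fell (-0.47), and Kcnj9 did not pass. RGS proteins end Gi and Go signalling by speeding GTP hydrolysis. Of 8 RGS genes 7 fell, where 35% of all genes tested were called lower, and the median of the 8 was -0.93. Rgs4 averaged 50.9 ± 7.46 CPM in TTX libraries and 623 ± 17.6 in vehicle libraries (log2 fold change -3.61), and Rgs20 rose by 0.55 on the log2 scale. Rgs14, Rgs7, Rgs8, Rgs17, Rgs9 and Rgs19 had log2 fold changes of -1.39, -1.32, -0.94, -0.93, -0.78 and -0.14.

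Gi proteins restrain some adenylyl cyclases but not all. Of 7 adenylyl cyclase genes, 4 rose (Adcy2 by 0.42, Adcy3 by 0.23, Adcy6 by 0.11 and Adcy5 by 0.09 on the log2 scale). Adcy1 and Adcy7 did not pass, and Adcy8, which calcium activates, fell to 6.76 ± 0.750 CPM in TTX libraries, against 59.8 ± 3.32 in vehicle libraries. Of 7 genes for receptor kinases and arrestins, which switch off and internalise activated receptors, Grk3, Arrb1 and Arrb2 rose (0.81, 0.33 and 0.26), Grk6 fell (-0.46) and Grk2, Grk4 and Grk5 did not pass. The beta and gamma subunit list had 2 genes higher (Gnb4 and Gng13), 3 lower (Gnb2, Gnb5 and Gng7) and 3 that did not pass (Gnb1, Gng2 and Gng3). Gng2 ranged from 0.572 to 475 CPM in TTX libraries and from 0.393 to 528 CPM in vehicle libraries, so its change could not be read. Gng3 was called higher with upper-quartile scaling or library totals. The presynaptic calcium channel genes Cacna1a and Cacna1b had log2 fold changes of -0.19 and 0.11, and the call of Cacna1b was lost without TTX replicate 2. Primary cilium genes, measured because Sstr3 is a ciliary receptor, split evenly, with 5 of 14 higher, 5 lower and 4 not passed and a median of 0.04. That is close to the shares over all genes tested, 35.4% higher and 35% lower. Ttc8, which did not pass, was called higher with upper-quartile scaling, library totals or limma-voom, and without vehicle replicate 2. Mchr1, the receptor of melanin-concentrating hormone and another receptor of neuronal cilia, fell (log2 fold change -0.87), and genes of ciliary transport went both ways. Ift88, Ift122 and Bbs7 rose by 0.60, 0.58 and 0.57, Bbs5, Bbs1, Ift20 and Kif3a had log2 fold changes of -0.42, -0.22, -0.21 and -0.10, and Bbs2 and Bbs4 did not pass.

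**Figure D4:**
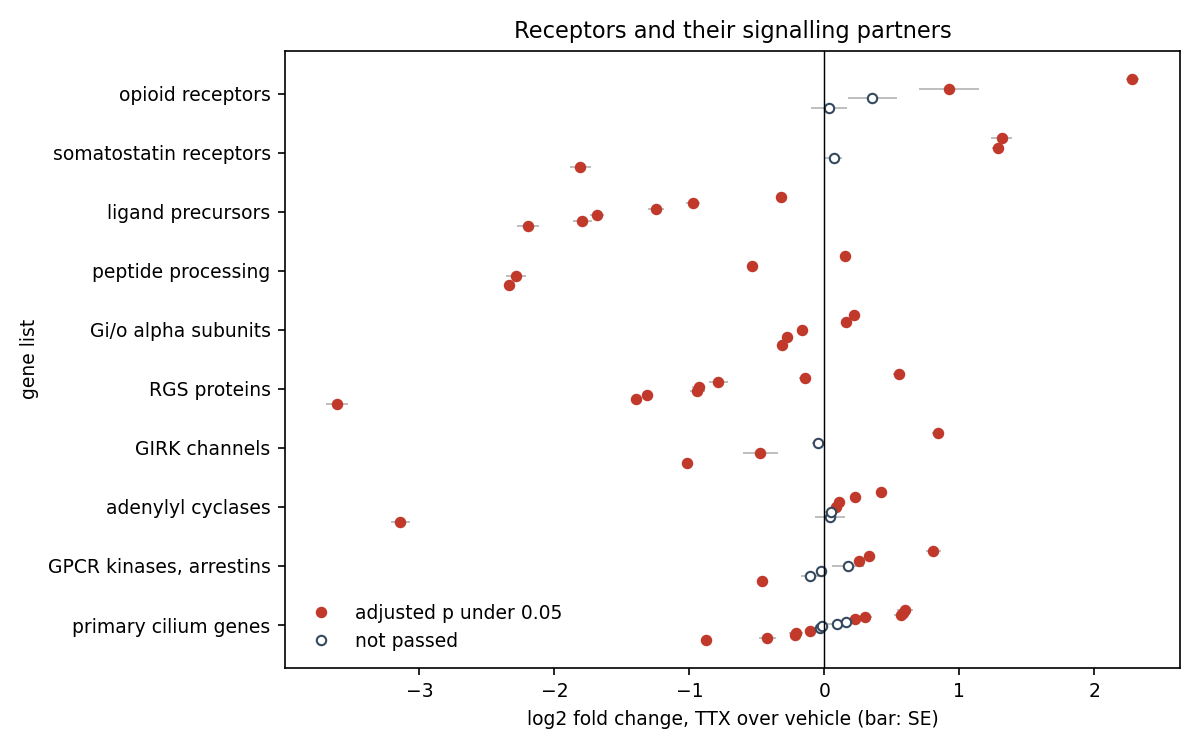
Log2 fold change of TTX over vehicle for each tested gene of the receptor families and of the lists of their partners, with SE as bars; filled points passed the test and open points did not. All 6 ligand precursors and 7 of 8 RGS genes lie left of 0, whereas Oprl1, Oprk1, Sstr2 and Sstr3 lie right of it.

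Receptors for other peptides gave no common direction. Of 10 such genes, Npy1r, Galr2 and Galr3 rose (0.76, 0.64 and 0.78 on the log2 scale), Mchr1, Galr1, Cckbr and Hcrtr2 fell (-0.87, -1.72, -2.92 and -2.92) and Npy2r, Npy5r and Kiss1r did not pass. Npy5r was near the threshold (log2 fold change 0.46, adjusted p = 0.0513 by edgeR) and passed with upper-quartile scaling, library totals, DESeq2 or the replicate block, and without TTX replicate 1, vehicle replicate 2 or vehicle replicate 5. The median of the 10 was -0.11.

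By Pearson correlation of log2 CPM (0.5 added) over the 10 libraries, the genes most like Oprl1 among 11828 compared were Rab7b (r = 0.999) and Cntn2 (r = 0.999), those most like Sstr2 were Dhx9 (0.999) and Ino80c (0.999), those most like Sstr3 were Loxl1 (0.999) and Zfp24 (0.997), and those most like Sstr1 were Hspa1a (0.996) and Cd82 (0.996). These values describe a shared split between TTX and vehicle libraries and carry no p: 244 genes exceeded an r of 0.99 with Oprl1, 223 with Sstr2, 109 with Sstr1 and 45 with Sstr3. The correlation does not reflect the size of the change. Rab7b and Cntn2 had log2 fold changes of 1.35 and 2.81, against 2.28 for Oprl1. Those of Dhx9 and Ino80c were 1.05 and 0.61, against 1.29 for Sstr2. Loxl1 and Zfp24 had 1.16 and 0.67, against 1.31 for Sstr3. For Hspa1a and Cd82 they were -1.75 and -0.37, against -1.81 for Sstr1. Hspa1a has near-identical copies, so its counts are uncertain.

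Markers of cell types were read in the same libraries. Total counts per library were 58785925 to 84921962 with TTX and 52254261 to 77757538 with vehicle, and all 5 activity-dependent genes measured as a check (Npas4, Fos, Arc, Bdnf and Nr4a1) fell. The summed level of 7 neuronal markers was 2617 to 2744 CPM in TTX libraries and 2520 to 2720 CPM in vehicle libraries, which overlap (2 higher, 1 lower, 4 not passed; 1 higher without TTX replicate 2 and 4 with upper-quartile scaling or library totals). For 7 excitatory markers the sum was 2119 to 2210 CPM in TTX libraries and 1671 to 1821 CPM in vehicle libraries (4 of 7 higher), and for 9 inhibitory markers, Sst among them, it was 971 to 1027 CPM and 1383 to 1491 CPM (4 lower, 5 not passed), in TTX and vehicle libraries. The inhibitory markers that fell were Gad1, Gad2, Vip and Sst (log2 fold changes of -1.02, -0.93, -0.68 and -0.32), and Slc32a1, Dlx1, Dlx2, Lhx6 and Pvalb did not pass. The 7 astrocyte markers summed to 14202 to 16007 CPM in TTX libraries and 9329 to 10977 CPM in vehicle libraries (4 higher, 1 lower), and the 8 oligodendrocyte lineage markers to 1882 to 2046 CPM and 1170 to 1445 CPM (6 higher, 1 lower). Most of the astrocyte sum was Gfap, at a mean of 9701 CPM in TTX libraries and 5363 in vehicle libraries. Slc1a3 and Aqp4 did not pass, and Aqp4 ranged from 272 to 1795 CPM in TTX libraries, against 1048 to 1219 in vehicle libraries. Microglial markers (48.7 to 144.5 CPM in TTX libraries and 49.9 to 77.1 CPM in vehicle libraries, 2 of 7 higher, but 5 without TTX replicate 1 and 1 without TTX replicate 5, with limma-voom or with the replicate block) and ependymal markers (233 to 327 CPM and 156 to 242 CPM, 5 of 5 higher) overlapped between the groups. Vascular and meningeal markers were low, at 20.4 to 22.5 CPM in TTX libraries and 43.7 to 50.4 CPM in vehicle libraries (3 of 4 tested lower). No marker was at 0 in every library. The part of these shifts in the levels of the receptor genes was not tested.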

How the data were processed

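Bulk RNA was sequenced from 5 TTX and 5 vehicle samples of rat hippocampal cultures. HISAT2 2.1.0, StringTie, DESeq2 and build rn6 appear in the submitters' processing notes; which of them counted reads, and whether by strand, is not stated there. The authors deposited whole-number counts per gene and library, used as deposited, and FPKM values, used to compare levels between genes. Log2 fold changes and FDR p-values that the authors deposited were used only to compare directions: in the authors' deposited table the same 5 receptor genes pass. Of 14608 lines, 254 identical repeats were removed, leaving 14354 genes; none of the receptors was repeated.

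Tests used edgeR 4.0.16 in R 4.3.3 (TMM, two-sided glmQLFTest, glmTreat at 1.5-fold, and filterByExpr set to 10 counts per gene and 15 in total) over 13088 genes. SEs were derived from the F statistic and the log2 fold change. CPM used TMM library sizes. Libraries held 58785925 to 84921962 counts with TTX and 52254261 to 77757538 with vehicle; precision is given by the spread between libraries. Ratios of receptor genes used log2(CPM + 0.5). The pipeline was tested on simulated data. Alternatives were other scalings, filters, DESeq2 1.42.0, limma-voom (limma 3.58.1), a replicate block, leaving out each library and, added after seeing the data, limma on log2(FPKM + 0.1). No replicates were merged, since pairs within a group differed by a mean chi-square per gene between 9.94 and 23.0, above sampling noise.

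Receptor genes and lists were chosen with earlier results of these data known. All 8 receptor genes are named, lists of at most 10 genes may have any member named, and longer lists the 3 with the smallest p; the similar genes are the 2 with the highest correlation for each called receptor with a mean of at least 1 CPM. Other members of the primary cilium list were named after their values were seen.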

Additional observations from a re-analysis of the deposited data

Results flagged for a closer look

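Of 16 groups of 5 libraries checked (8 receptor genes in each of 2 groups), 1 held a library far from the rest, and about 1 in 20 does so by chance. It was Oprm1 in TTX libraries, where replicate 5 had 1.73 CPM and the other TTX libraries had 1.39 to 1.48 CPM. Without TTX replicate 5 the log2 fold change of Oprm1 was 0.30 (adjusted p = 0.185 by edgeR), and with all libraries it was 0.36 (adjusted p = 0.0933).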

How the results depend on the processing

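Each of the 5 receptor genes called kept its direction and its call under other scalings (RLE, upper quartile, library totals), DESeq2, omission of the filter, a stricter filter (5 libraries at 1 CPM), limma-voom, the replicate block, limma on FPKM and the omission of each library. Leaving out 1 library gave log2 fold changes of 2.24 to 2.32 for Oprl1, 0.80 to 1.17 for Oprk1, 1.26 to 1.31 for Sstr2, 1.24 to 1.36 for Sstr3 and -1.89 to -1.76 for Sstr1, and, for genes not called, 0.25 to 0.50 for Oprm1, 0.02 to 0.10 for Sstr4 and -0.039 to 0.092 for Oprd1. Oprd1 changed sign without TTX replicate 2 (-0.01), vehicle replicate 1 (-0.01) or vehicle replicate 4 (-0.039). Oprm1 passed without vehicle replicate 2 (0.50) and with limma on FPKM (0.43); the cause was not tested. Same-numbered TTX and vehicle libraries did not deviate together (correlations of -0.09 to 0.06). This cannot exclude that the numbers pair the samples, since paired samples may share little deviation, and the labels do not say. With the replicate block, 4572 genes were higher and 4563 lower, against 4638 and 4583 without it, and 4 receptor genes were higher and 1 lower. Leaving out 1 library gave 4405 to 4548 genes higher and 4462 to 4555 lower, and 21 to 24 pairs of receptor genes that differed, against 23. Pseudocounts of 0.1 and 1 CPM gave 21 and 22 pairs: with 0.1, Oprk1 no longer differed from Sstr2 (-0.40) or Sstr3 (-0.43), and with 1 not from Oprd1 (0.42). Uncalled pairs changed sign without 1 library: Sstr2 with Sstr3 ranged from -0.051 to 0.034 and Oprd1 with Sstr4 from -0.088 to 0.021. Oprk1, Oprm1 and Oprd1 had 29 to 193 counts per library, and their CPM varied by up to 37.9% (coefficient of variation, Oprk1 in vehicle libraries); the parts of depth and of variation between libraries in their precision were not tested.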
